A study of Mus musculus with 7 samples.

Results

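The insulin signaling and FoxO genes described here are 10 genes, read on the array by 16 of its 55681 probes and making up 10 of its 36492 gene names. They were taken by name from the array's gene annotation: the insulin receptor Insr, the receptor substrates Irs1 and Irs2, the PI3-kinase subunit Pik3r1, the kinases Akt1 and Akt2, the transcription factors Foxo1 and Foxo3, and the glycogen-targeting phosphatase subunits Ppp1r3b and Ppp1r3c. Of these, 9 passed the filter on dim probes and were tested, all 9 well above background on all 7 arrays. Foxo3 was not well above background on any array and was not tested.

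Total liver RNA of 3 WT and 4 SHIVA mice was hybridized to Agilent arrays in a single colour, each mouse on its own array without pooling, to ask how the mutation affects the liver's response to fasting. All mice were C57BL/6 females of 8 to 12 weeks that had been without food for 24 h, so no fed liver was measured. WT mice carried wildtype Sox17. SHIVA mice carried a missense mutation in the HMG domain of Sox17, a transcription factor of endoderm and vessels, which arose by ENU mutagenesis and was found as a dominant trait in heterozygous mice that were backcrossed to C57BL/6. The mutation is present in every cell, and whole liver was measured, so that fewer cells of a type and less RNA per cell cannot be told apart.

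Insulin binds its receptor, which phosphorylates the substrates Irs1 and Irs2. These recruit PI3-kinase, and the lipid it makes activates Akt. In the liver Akt keeps Foxo1 out of the nucleus and favours glycogen synthesis, while in fasting Foxo1 is nuclear, drives gluconeogenic genes such as G6pc and Pck1, and also raises Irs2 transcription.

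The promoters of the receptor substrates are shown because they are the only ones of these genes whose window holds TGTTTTG. The RefSeq promoter table for GRCm38.p6 matched 8 of the 10 genes, with 13 windows, and Insr and Ppp1r3b had no match. Each sequence is the 250 bases before the transcription start, 5′ to 3′ on the gene's strand, at chr1:82291440-82291689 (minus strand) for Irs1 and chr8:11008930-11009179 (minus strand) for Irs2. Capitals mark TGTTTTG, the core of the insulin response element.
Irs1: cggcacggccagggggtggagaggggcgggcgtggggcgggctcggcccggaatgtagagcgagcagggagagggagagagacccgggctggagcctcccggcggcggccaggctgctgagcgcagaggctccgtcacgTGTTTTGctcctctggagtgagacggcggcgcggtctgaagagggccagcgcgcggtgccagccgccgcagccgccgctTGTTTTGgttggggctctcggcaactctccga
Irs2: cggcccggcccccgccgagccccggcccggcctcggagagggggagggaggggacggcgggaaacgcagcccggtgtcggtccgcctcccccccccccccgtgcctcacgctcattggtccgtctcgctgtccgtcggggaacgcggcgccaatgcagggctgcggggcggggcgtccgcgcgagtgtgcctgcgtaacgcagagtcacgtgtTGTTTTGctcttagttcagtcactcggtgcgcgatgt
TGTTTTG was searched on both strands, as TGTTTTG or CAAAACA. Irs1 held it 111 to 105 and 32 to 26 bases before the start, and Irs2 held it 37 to 31 bases before the start. It was found in 5.56% of all 32851 windows of this length and in no window of the other 6 genes with an entry. The related forkhead motif TGTTTAC, searched also as GTAAACA, was in 3.17% of all windows and, among these genes, in Akt1, 161 to 155 bases before the start. The longest stretches that the Irs1 and Irs2 windows share are GTCACGTGTT and TGTTTTGCTC, each of 10 bases. GTCACGTGTT lies 117 to 108 bases before the start in Irs1 and 46 to 37 bases before it in Irs2, and was in 23 of the 32851 windows on either strand, while its inner CACGTG, an E-box, was in 6.02% of them. TGTTTTGCTC, which holds the marked motif, lies 111 to 102 bases before the start in Irs1 and 37 to 28 bases before it in Irs2, and was in 21 windows. The stretches overlap each other in both promoters. A match describes these letters and does not show binding.

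Signals are log2 values of quantile-normalized intensities. Each gene was represented by its brightest probe, and the genotypes were compared by limma, with Benjamini-Hochberg adjustment over the 20012 genes tested and a call at an adjusted p under 0.05. Log2 fold changes are SHIVA over WT. None of the 9 genes was called by limma (0 of 9, against 0.375% of all genes tested). At an unadjusted p under 0.05, limma gave 4 of the 9, namely Irs1, Pik3r1, Ppp1r3b and Ppp1r3c, against 13.3% of all genes tested. WT mouse 1 had the lowest signal of all mice for Irs1, Ppp1r3b and Ppp1r3c and the highest for Pik3r1. Without WT mouse 1 the unadjusted limma p was 0.0176 for Irs1, 0.0609 for Pik3r1, 0.083 for Ppp1r3b and 0.188 for Ppp1r3c. The methods' t-test gave 3 of 9 unadjusted, against 11.5% of all genes tested, and 0 after adjustment. The SHIVA mean was higher for 6 genes and lower for 3, with a median log2 fold change of 0.14 and a range from -0.45 to 1.13. The median over all genes tested was -0.01, with a 5th percentile of -0.58 and a 95th of 0.65. WT and SHIVA signals did not overlap for 2 of the 9, Irs1 and Pik3r1, against 12.2% of all genes tested. Irs1 was the higher one (6.15% of all genes were higher without overlap) and Pik3r1 the lower one (6.02% were lower without overlap).

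The arrays were alike in depth, with 44.5% to 48.8% of probes well above background, 120 to 163 marked spots left out per array and 0 saturated spots. The number of arrays limits the precision. All lay on 1 slide, with WT in row 1 and SHIVA in row 2, so that position and genotype cannot be told apart. All 8 hepatocyte markers were well above background on all arrays, while 5 of 6 skeletal muscle markers were so on none. The summed signal of 6 Kupffer cell and macrophage markers ranged from 12000 to 25600 in WT and from 16500 to 30200 in SHIVA livers, and that of the 6 neutrophil markers on the array, out of 7 listed, from 981 to 1800 and from 951 to 2850. For 7 liver endothelial markers the sum ranged from 15400 to 18500 in WT and from 13100 to 15600 in SHIVA livers. It ranged from 13800 to 14800 and from 7560 to 14700 for 7 stellate cell markers. For 6 cholangiocyte markers it ranged from 517 to 1570 and from 459 to 824. Bright markers weigh most in these sums. The median log2 fold change of the tested markers was 0.08 for liver endothelial, -0.01 for stellate cell and -0.64 for cholangiocyte markers. It was 0.41 for Kupffer cell and macrophage markers and 1.09 for neutrophil markers. No gene of these lists was called by limma. Each of their markers on the array was well above background on at least 1 array, and the part of these cells in the results was not tested. SHIVA mouse 2 stood apart in Saa2, an acute-phase gene, at a log2 signal of 17.36 against 11.98 to 12.82 in the other SHIVA livers and 10.36 to 12.11 in WT livers. Sox17 itself had log2 signals of 4.52, 3.41 and 3.92 in WT and 4.62, 4.46, 4.76 and 4.70 in SHIVA livers (limma adjusted p = 0.279), which does not check a base change. These signals were dim, and the Sox17 probe was well above background on 2 of the 3 WT and all 4 SHIVA arrays.

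The receptor came first in the pathway. Insr, which starts the signal, was read by the probe at chr8:3151667-3151726 of mm9 (minus strand), at log2 signals of 7.54, 8.08 and 8.24 in WT mice 1 to 3 and 8.39, 7.95, 8.49 and 8.33 in SHIVA mice 1 to 4. WT mouse 1 was the lowest and the groups overlapped through SHIVA mouse 2. The log2 fold change was 0.34 (SE 0.21, 95% confidence interval -0.15 to 0.82, limma adjusted p = 0.55), and it was 0.13 without WT mouse 1. Both further Insr probes gave 0.31, and the 3 probes together placed WT mouse 1 lowest each time.

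Irs1 had higher signals in every SHIVA liver than in any WT liver. This substrate passes the signal of the insulin and IGF receptors to PI3-kinase. Its log2 signals, from the probe at chr1:82229692-82229751 of mm9 (minus strand), were 7.52, 7.97 and 8.32 in WT and 8.87, 8.81, 8.56 and 8.55 in SHIVA livers. The groups did not overlap, and the SHIVA livers spread over 0.31 against 0.79 in WT. The WT mean was 7.94 ± 0.40 (SD, n = 3) and the SHIVA mean 8.69 ± 0.16 (SD, n = 4), a log2 fold change of 0.76 (SE 0.21, interval 0.29 to 1.23, 1.69-fold). The limma adjusted p was 0.193, so that the difference did not pass over all genes. A second, dim Irs1 probe, above background on 6 arrays, gave 0.12 (SE 0.34, interval -0.66 to 0.89) with overlapping groups, and the mean of both probes gave 0.44. The genes whose deviations over the 7 arrays were closest to those of Irs1 were 5830473C10Rik, Pde4a and C2, at root mean square distances of 0.09, 0.10 and 0.11 on the log2 scale.

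Irs2 varied most among the SHIVA livers and did not separate the groups. Irs2 is the substrate that the fasted liver makes through Foxo1. The probe that reads it, chr8:11004490-11004549 of mm9 (minus strand), is shown because the widest spread among SHIVA livers of these genes rests on it alone.
Irs2 probe: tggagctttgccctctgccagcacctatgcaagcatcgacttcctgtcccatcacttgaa
Its log2 signals were 11.03, 11.87 and 11.34 in WT and 11.55, 10.29, 10.88 and 12.33 in SHIVA livers. SHIVA mice 2 and 4 were the lowest and the highest of all 7, a range of 2.05 among SHIVA against 0.84 among WT livers. The log2 fold change was -0.15 (SE 0.45, interval -1.16 to 0.87, limma adjusted p = 0.923), and its sign turned without WT mouse 2 (0.08) or without SHIVA mouse 2 (0.18). The interval of the difference holds changes of more than 1.5-fold in either direction.

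**Figure D1:**
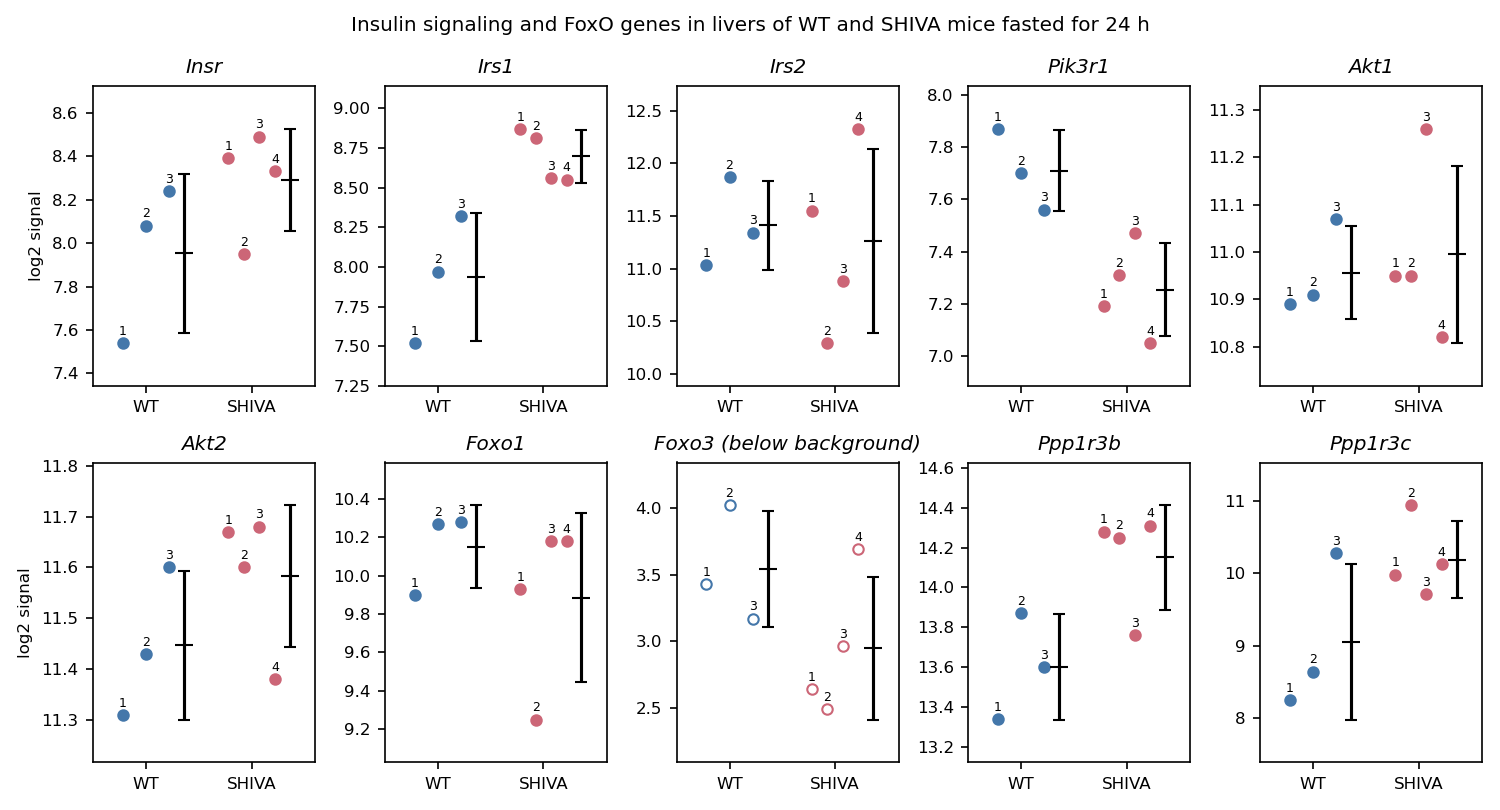
Log2 signal (y axis, own scale per gene) of the 10 insulin signaling and FoxO genes in each WT (blue) and SHIVA (red) liver, numbered by mouse, with the mean and SD of the group beside the points. Irs1 and Pik3r1 are the genes without overlap, SHIVA mice 2 and 4 are the extremes of Irs2, WT mouse 3 lies among the SHIVA livers for Ppp1r3c, and open points mark Foxo3, which was not well above background.

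Pik3r1 was lower in every SHIVA liver than in any WT liver. It encodes the p85α regulatory subunit, which tethers the PI3-kinase catalytic subunit to the receptor substrates. Its log2 signals, at chr13:102454406-102454465 of mm9 (minus strand), were 7.87, 7.70 and 7.56 in WT and 7.19, 7.31, 7.47 and 7.05 in SHIVA livers. The nearest livers, WT mouse 3 and SHIVA mouse 3, lay close to each other without crossing. The log2 fold change was -0.45 (SE 0.16, interval -0.81 to -0.09, 0.73-fold), with a limma adjusted p of 0.268, and it was -0.27 with normexp background correction.

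The Akt genes showed the smallest mean differences. Akt1 and Akt2 are the kinases that carry the signal to FoxO factors and to glycogen synthesis, Akt2 being the main form of insulin target tissues. Akt1, read by 2 spots at chr12:113892079-113892138 of mm9 (minus strand), had log2 signals of 10.89, 10.91 and 11.07 in WT and 10.95, 10.95, 11.26 and 10.82 in SHIVA livers. The SHIVA livers enclosed the WT livers, with a log2 fold change of 0.04 (SE 0.15, interval -0.31 to 0.39, limma adjusted p = 0.941), whose sign turned with 75th percentile scaling of the arrays (-0.01) or without SHIVA mouse 3 (-0.05). Akt2, at chr7:28424405-28424464 of mm9 (plus strand), had 11.31, 11.43 and 11.60 in WT and 11.67, 11.60, 11.68 and 11.38 in SHIVA livers. The groups overlapped through SHIVA mouse 4, with a log2 fold change of 0.14 (SE 0.15, interval -0.20 to 0.47, limma adjusted p = 0.749), and it was 0.07 without WT mouse 1. Of its other probes, one that overlaps this position gave 0.23 with no overlap between the groups and one further upstream gave -0.09 with overlap, so the Akt2 probes differed in sign. These intervals hold no change of Akt1 or Akt2 beyond 1.5-fold.

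The FoxO factors differed in how well they could be read. Foxo1, the main FoxO factor of the fasted hepatocyte, was bright on every array. Its brightest probe, chr3:52150183-52150242 of mm9 (plus strand), is shown because SHIVA mouse 2 stood apart on it.
Foxo1 probe: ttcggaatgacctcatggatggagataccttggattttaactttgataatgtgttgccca
Its log2 signals were 9.90, 10.27 and 10.28 in WT and 9.93, 9.25, 10.18 and 10.18 in SHIVA livers. SHIVA mouse 2 stood below the other mice, which all lay between 9.90 and 10.28, and it was also the lowest on the second Foxo1 probe, at 8.42. The log2 fold change was -0.27 (SE 0.25, interval -0.83 to 0.29, limma adjusted p = 0.703) and -0.06 without SHIVA mouse 2, and the second probe gave -0.05. For Foxo3, a second FoxO factor, signals were at chr10:41905610-41905669 of mm9 (minus strand) between 3.17 and 4.02 in WT and between 2.49 and 3.69 in SHIVA livers, none of them well above background, so no fold is given.

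Both glycogen-targeting subunits had higher means in SHIVA livers, without passing the test. Ppp1r3b (GL) and Ppp1r3c (PTG) bring protein phosphatase 1 to the glycogen particle, where it activates glycogen synthase. Ppp1r3b, at chr8:36451115-36451174 of mm9 (plus strand), had log2 signals of 13.34, 13.87 and 13.60 in WT and 14.28, 14.25, 13.76 and 14.31 in SHIVA livers. SHIVA mice 1, 2 and 4 were above all WT mice, while SHIVA mouse 3 lay among them. The log2 fold change was 0.55 (SE 0.20, interval 0.10 to 0.99, 1.46-fold, limma adjusted p = 0.279).

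Ppp1r3c had the largest mean difference of the 9 tested genes. Its log2 signals, at chr19:36806457-36806516 of mm9 (minus strand), were 8.25, 8.64 and 10.28 in WT and 9.98, 10.94, 9.71 and 10.13 in SHIVA livers. WT mice 1 and 2 lay below all SHIVA mice, and WT mouse 3 lay among them, so that the WT range of 2.03 exceeded the SHIVA range of 1.23. The means were 9.06 ± 1.08 (SD, n = 3) and 10.19 ± 0.53 (SD, n = 4), a log2 fold change of 1.13 (SE 0.48, interval 0.04 to 2.23, 2.2-fold, limma adjusted p = 0.361). Without WT mouse 3 the log2 fold change was 1.75 and the limma adjusted p 0.0476. That fit called 416 genes in all, against 75 with every mouse, so the call does not rest on the values of Ppp1r3c alone. Without WT mouse 1 the log2 fold change was 0.73 (limma adjusted p = 0.654). The genes closest to Ppp1r3c over the 7 arrays were BC055308 and Hmx1, at distances of 0.30 and 0.32, with an intergenic transcript of chromosome 1 between them at 0.31.

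**Figure D2:**
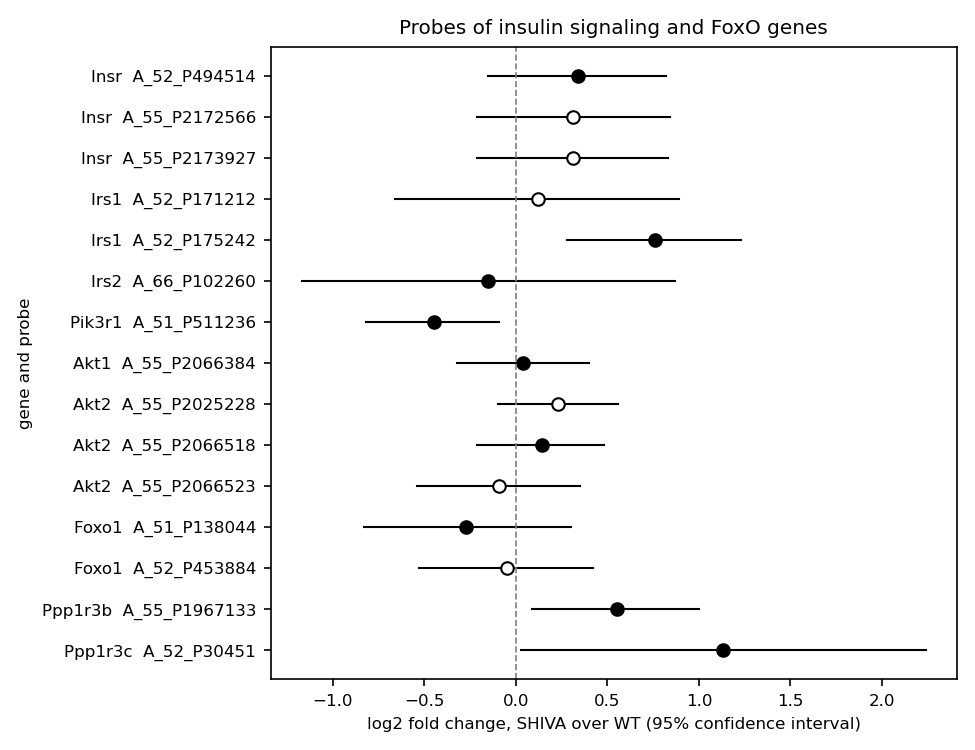
Log2 fold change, SHIVA over WT (x axis), with its 95% confidence interval, for each probe of the 9 tested genes (y axis), where filled points mark the probe that stood for the gene. The intervals of the filled points for Irs1, Pik3r1, Ppp1r3b and Ppp1r3c leave out 0 while the dim Irs1 probe (0.12) does not, and none of these probes passed limma after adjustment.

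The rest of the insulin pathway was read from a list of 60 further genes, of which 54 were tested. None was called by limma (3 at an unadjusted p under 0.05, against 13.3% of all genes, and 7 unadjusted, against 11.5% of all genes, with 0 adjusted by the methods' t-test). Their median log2 fold change was 0.06, with 32 means higher and 22 lower in SHIVA, and 14.8% of them had no overlap, against 12.2% of all genes. Sgk1, a kinase of the Akt family that also phosphorylates FoxO factors and is induced by glucocorticoids, had the largest difference in this list. Its log2 signals were 9.13, 8.91 and 8.76 in WT and 10.03, 10.68, 9.84 and 9.97 in SHIVA livers. Every SHIVA liver was clearly above every WT liver, with a log2 fold change of 1.20 (SE 0.22, 2.3-fold) and a limma adjusted p of 0.0748, just short of the threshold. Under 4 of the 18 alternative settings it was called, with adjusted p from 0.0333 to 0.0478. Prkaa1, a catalytic subunit of the energy sensor AMPK, was higher without overlap (0.43, limma adjusted p = 0.274, and 0.25 with normexp background correction). Rps6kb2, an S6 kinase downstream of mTOR, was lower without overlap (-0.39, limma adjusted p = 0.249). Their sister genes, named after their values were seen and not recomputed under the alternatives, overlapped between the groups. Prkaa2 had 0.13 (limma adjusted p = 0.749) and Rps6kb1 had 0.01 (limma adjusted p = 0.991). Socs3, an inhibitor of receptor and substrate induced by cytokines and named after its values were seen, had 7.94, 7.92 and 8.02 in WT and 8.49, 9.65, 7.94 and 8.69 in SHIVA livers (log2 fold change 0.73, limma adjusted p = 0.411, and 0.41 without SHIVA mouse 2). Its highest value was in SHIVA mouse 2, the liver that also had the highest Saa2.

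The list of FoxO targets held 35 genes, of which 32 were tested. None was called by limma (7 at an unadjusted p under 0.05, against 13.3% of all genes, and 6 unadjusted, against 11.5%, with 0 adjusted by the methods' t-test). The median log2 fold change was -0.04, and 18.8% had no overlap, against 12.2% of all genes, with 1 higher (6.15% of all genes) and 5 lower (6.02% of all genes) in SHIVA. The textbook gluconeogenic targets, named after their values were seen, overlapped between the groups. G6pc, the last enzyme of glucose release, ranged from 14.61 to 15.29 in WT and from 14.78 to 15.31 in SHIVA livers (log2 fold change 0.16, limma adjusted p = 0.795). Pck1, the committing enzyme of gluconeogenesis, ranged from 15.98 to 16.44 and from 16.26 to 16.72 (0.28, limma adjusted p = 0.555). Neither separated the genotypes, and single mice moved both values either way. G6pc was 0.01 without WT mouse 3 and 0.35 without WT mouse 2. Pck1 was 0.14 without WT mouse 1 and 0.38 without SHIVA mouse 2. Igfbp1, a secreted IGF-binding protein, had 13.50, 14.28 and 13.66 in WT and 13.67, 14.10, 13.33 and 15.32 in SHIVA livers. Ppargc1a, the coactivator of Foxo1 in fasting, had 7.68, 8.02 and 8.39 in WT and 8.67, 6.62, 8.80 and 9.29 in SHIVA livers. SHIVA mouse 4 was the highest of all 7 for Igfbp1, Ppargc1a and Irs2, and SHIVA mouse 2 the lowest of all 7 for Ppargc1a, Irs2 and Foxo1. By a narrow gap SHIVA mouse 4 was also the highest for G6pc (15.31, next WT mouse 2 at 15.29) and Pck1 (16.72, next SHIVA mouse 3 at 16.71). It was not the highest for Foxo1 (10.18). These genes were set side by side after their values were seen. SHIVA mouse 2 was not the lowest for Igfbp1 (14.10), G6pc (15.17) or Pck1 (16.26). Neither Igfbp1 (0.29, limma adjusted p = 0.823) nor Ppargc1a (0.32, limma adjusted p = 0.855) was called. The value of Ppargc1a rested on single mice and on the probe, since it was 0.89 without SHIVA mouse 2 (adjusted p = 0.23 by limma), 0.00 without SHIVA mouse 4 and 1.06 with the mean of all its probes.

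The targets without overlap and with the largest differences were lower in SHIVA livers. Pdk4, which blocks pyruvate oxidation in fasting, had log2 signals of 9.34, 10.04 and 8.41 in WT and 7.41, 8.20, 7.24 and 8.21 in SHIVA livers (log2 fold change -1.50, SE 0.40, limma adjusted p = 0.189). WT mouse 3 was the WT liver nearest to the SHIVA livers, and without it the adjusted p was 0.0413, while without WT mouse 1 or 2 it was 0.463 or 0.441. The fit without WT mouse 3 called 416 genes in all, against 75 with every mouse. Txnip, an inhibitor of thioredoxin and of glucose uptake, had 11.70, 11.44 and 11.06 in WT and 10.13, 10.65, 9.82 and 10.68 in SHIVA livers (-1.08, SE 0.26, limma adjusted p = 0.145). Angptl4, a secreted inhibitor of lipoprotein lipase, had 14.11, 14.29 and 13.74 in WT and 13.16, 13.58, 13.40 and 13.59 in SHIVA livers (-0.61, SE 0.18, limma adjusted p = 0.228). Pdk4 and Angptl4 are known as targets of the fatty acid receptor PPARα too. Cdkn1a, the cell cycle inhibitor p21 and named after its values were seen, had 10.62, 10.98 and 8.92 in WT and 7.88, 8.37, 9.12 and 9.10 in SHIVA livers, overlapping through WT mouse 3 (-1.56, limma adjusted p = 0.249). Its adjusted p was 0.034 without WT mouse 3 and 0.579 without WT mouse 2.

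**Figure D3:**
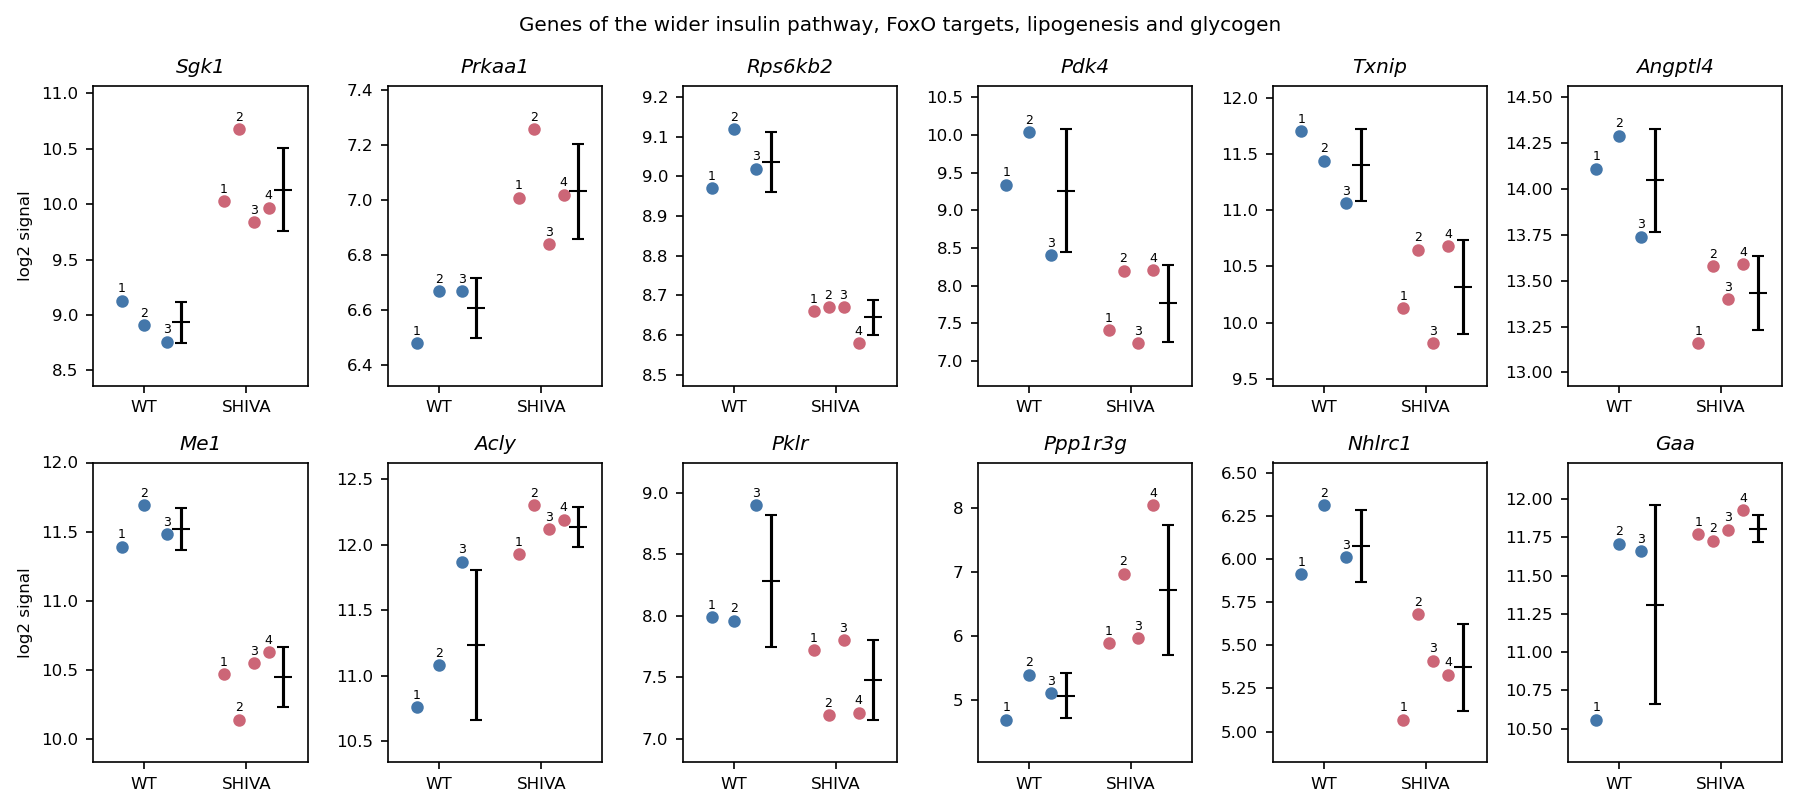
Log2 signal (y axis, own scale per gene) in each WT (blue) and SHIVA (red) liver, numbered by mouse, with the mean and SD of the group, for the 3 genes with the largest difference among those without overlap in each list: other insulin pathway, FoxO targets, lipogenic and glycogen genes. Sgk1 is separated widely (8.76 to 9.13 against 9.84 to 10.68), Me1 (11.39 to 11.69 against 10.14 to 10.63) is the one that was called, and Gaa is separated by little.

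The list of lipogenic genes that insulin induces held 16 genes, all of them tested. Of these, limma called 1, which was lower in SHIVA (0.19% of all genes were called lower). At an unadjusted p under 0.05, limma gave 4, against 13.3% of all genes. The methods' t-test gave 3 unadjusted, against 11.5%, and 0 adjusted. In SHIVA 10 means were lower and 6 higher, with a median log2 fold change of -0.17. Of the list 25% had no overlap, against 12.2% of all genes, with 1 higher (6.15% of all genes) and 3 lower (6.02%). The called gene was Me1, malic enzyme, which makes NADPH for fatty acid synthesis and is also a PPARα target. Me1 fell from 11.39, 11.69 and 11.48 in WT to 10.47, 10.14, 10.55 and 10.63 in SHIVA livers (log2 fold change -1.07, SE 0.17, 0.475-fold, limma adjusted p = 0.0456). The call was close to the threshold and was lost in 6 of the 7 fits that left out 1 mouse, all but that without WT mouse 3, at adjusted p from 0.0631 to 0.196. Acly, which supplies cytosolic acetyl-CoA, was higher in SHIVA livers, with 10.76, 11.08 and 11.87 in WT and 11.93, 12.30, 12.12 and 12.19 in SHIVA livers (0.90, SE 0.25, limma adjusted p = 0.206). Its adjusted p was 0.0246 without WT mouse 3 and 0.487 without WT mouse 1, where the log2 fold change was 0.66. Pklr, liver pyruvate kinase, was lower without overlap (-0.80, limma adjusted p = 0.262, and -0.49 without WT mouse 3). Among the classical insulin-induced genes, named after their values were seen, Srebf1 (0.52, limma adjusted p = 0.623) and Fasn (-0.66, limma adjusted p = 0.352) overlapped between the groups. Srebf1 was 0.04 without WT mouse 1 and 0.96 without WT mouse 3, and Fasn was -0.39 without WT mouse 3.

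The glycogen genes beside Ppp1r3b and Ppp1r3c numbered 29, of which 24 were tested and none called by limma (5 unadjusted, against 13.3% of all genes, and 5 unadjusted, against 11.5%, with 0 adjusted by the methods' t-test). The SHIVA mean was higher for 18 and lower for 6, with a median of 0.12, and 25% had no overlap, against 12.2% of all genes, with 5 higher (6.15% of all genes) and 1 lower (6.02% of all genes). Ppp1r3g, a further glycogen-targeting subunit of protein phosphatase 1, had log2 signals of 4.69, 5.39 and 5.10 in WT and 5.89, 6.97, 5.96 and 8.04 in SHIVA livers. It was the largest difference of the list (1.66, SE 0.49, 3.16-fold, limma adjusted p = 0.225), spread widely among SHIVA livers, and it was 0.84 with normexp background correction. Gys2, liver glycogen synthase and named after its values were seen, had 10.81, 11.01 and 11.08 in WT and 11.43, 11.13, 11.44 and 11.25 in SHIVA livers, without overlap (0.34, limma adjusted p = 0.369). Stbd1, which tethers glycogen to membranes and was named likewise, had 0.80 (limma adjusted p = 0.249) with overlap. Nhlrc1, the ubiquitin ligase malin that targets PTG, was lower without overlap (-0.70, SE 0.18, limma adjusted p = 0.183), and it was -0.27 with normexp background correction. Gaa, the lysosomal glycogen-degrading enzyme, had 10.56, 11.71 and 11.66 in WT and 11.77, 11.73, 11.80 and 11.93 in SHIVA livers (0.50, limma adjusted p = 0.482), a gap to WT mice 2 and 3 far smaller than that to WT mouse 1, without which the log2 fold change was 0.12.

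**Figure D4:**
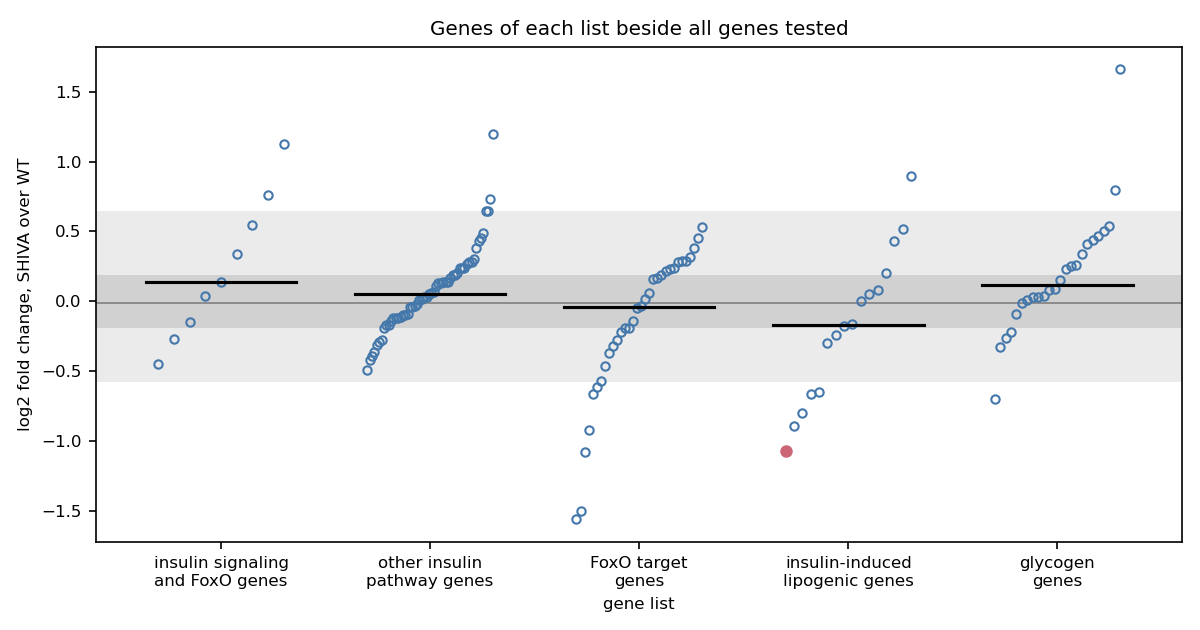
Log2 fold change, SHIVA over WT (y axis), of each tested gene of the 5 lists (x axis), sorted within the list, with the median as a black bar. The line and the grey bands give the median (-0.01), the 25th to 75th percentile (-0.19 to 0.19) and the 5th to 95th percentile (-0.58 to 0.65) of all genes tested, and the filled red point is Me1, which limma called.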

How the data were processed

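Per the labels, RNA of each liver was labelled with Cy3 and hybridized to 1 array. The authors deposited the scanner output of Agilent Feature Extraction 10.5.1.1 (from the submitters' processing notes), in which each spot has a processed intensity that is not normalized between arrays, and a table of quantile-normalized log2 values. The table was used as an alternative.

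Control spots (3671 of 62976) and spots flagged by the software were left out. The processed intensities of all 7 arrays were quantile normalized together and log2 transformed, and spots of a probe were averaged. Quantile normalization fixes the distribution of every array, so a shift shared by most genes would not show. A gene was its probe with the highest mean signal, tested where at least 3 arrays had that probe well above background. WT and SHIVA were compared with limma 3.58.1 (R 4.3.3) with no covariate, and the steps were tested on simulated data. P-values set the difference between the genotypes against the spread between mice of a genotype. The deposited columns of 0 other samples were left aside.

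Symbols were brought up to date through RefSeq (26413 probes) and otherwise kept as in the files. Probes are placed on mm9, and promoters on GRCm38.p6. The 10 genes and the lists were chosen with earlier results of these data known. Named are all 10 genes, every called gene of a list, the 3 genes per list with the largest change among those without overlap, and the 3 genes nearest in pattern to Ppp1r3c and Irs1. Others are said to be named after their values were seen. No p was adjusted over the 10 genes alone. The alternatives were other scalings, signals, background corrections, filters, probe choices, array weights, a block for the replicate number, fits without each mouse in turn, and the t-test that the methods name for comparisons in general.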

Additional observations from a re-analysis of the deposited data

Results flagged for a closer look

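In 2 of 31 genes examined, 1 SHIVA liver lay apart from the other 3 by a gap beyond the 95% limit of Dixon's test, which chance gives in about 5% of groups of this size. The count of 2 in 31 is near that share. For Ppp1r3b it was SHIVA mouse 3, at a log2 signal of 13.76 against 14.25 to 14.31 (gap over range 0.885), the mouse through which the genotypes overlapped. For Rps6kb2 it was SHIVA mouse 4, at 8.58 against 8.66 to 8.67 (0.893), where the whole range was small.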

How the results depend on the processing

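Each gene was recomputed under 18 alternatives. Of 162 values of the 9 tested insulin signaling and FoxO genes, 157 kept their direction and their side of the threshold. The exceptions were Akt1 (-0.01 with 75th percentile scaling, and -0.05 to 0.10 leaving out 1 mouse each), Irs2 (-0.50 to 0.18 leaving out 1 mouse each) and Ppp1r3c (0.73 to 1.75, with 1.75 called without WT mouse 3). Accordingly 0 to 1 of the 9 genes were called leaving out 1 mouse each, and 1 had no overlap where all probes of a gene were averaged, since Irs1 then includes its dim probe. Among the other named genes, 375 of 396 values were kept, and the sign turned for G6pc (-0.03) and Igfbp1 (-0.09) with array weights, and for Igfbp1 without SHIVA mouse 4 (-0.11 to 0.55 leaving out 1 mouse each). Over all genes, limma called 141 with the mean signal or the authors' table, 13 with no filter on dim probes, 229 with array weights and 0 by the methods' t-test (2302 unadjusted), against 75, and 3 (without WT mouse 1) to 416 (without WT mouse 3) leaving out 1 mouse each, with 8 without WT mouse 2, 7 without SHIVA mouse 1 and 13 without SHIVA mouse 3. The cause of these moves was not tested. Of the other insulin pathway genes 1, Sgk1, was called with the mean signal, the authors' table, a filter on all arrays or array weights. Of the FoxO targets 0 to 3 were called leaving out 1 mouse each (3 without WT mouse 3), and of the lipogenic genes 0 to 2. With no filter, with each probe on its own row, and by the t-test, 0 lipogenic genes were called. Deviations of equally numbered mice correlated at -0.05, 0.01 and 0.24 over 19971 genes. Mice of unequal number were not compared, so these values do not settle whether the numbers pair the mice. With the replicate number as a block, 32 genes and 0 lipogenic genes were called, and Igfbp1 had -0.11. Scaling moved the median of all genes to at most -0.02. With 7 arrays, differences of the size of those of Insr or Foxo1 were within the error, and dim probes such as that of Foxo3 give no level.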
